A study of Mus musculus
Rattus norvegicus and Rattus norvegicus and Mus musculus with 18 samples.

Results

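The integrated stress response and the unfolded protein response were read through 42 genes chosen by symbol, each with 1 row among the 17672 mouse genes of the deposited table. The rat table holds 39 of the 42 symbols among 14876 genes; Cth, Nupr1 and Aldh18a1 of the rat were not analysed here. Of the mouse members, 22 belong to the branch of the transcription factor Atf4 and 20 to the branch of the endoplasmic reticulum (ER); in the rat these numbers are 19 and 20. They were chosen with earlier results of these data known, so counts of members called are descriptive.

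The tumors came from 4T1, a mouse mammary carcinoma cell line, placed in the mammary fat pad of SRG rats, an immunodeficient host strain that lacks mature T, B and NK cells, and taken 27 days later. Each library of polyA RNA holds mouse reads of 4T1 cells and rat reads of host tissue, so each gene is measured once in the tumor and once in the host. The tumor was divided into a necrotic core and a non-necrotic rim (5 libraries each, from the same 5 animals), and lungs were taken as well (5 libraries, 4 of them from those animals and 1 from Rat3789). A pellet of 4T1 cells (1 library) and mammary glands of rats without a tumor (2 libraries) served the authors as controls of a single species. All samples are labelled wildtype and untreated; 4T1 is 1 cell line, so the 5 animals replicate the host and the implant but not the tumor genotype.

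In the integrated stress response, kinases that sense unfolded protein, amino acid shortage, heme shortage or viral RNA phosphorylate the initiation factor eIF2, which lowers general translation and raises translation of Atf4. Atf4 in turn switches on transcription factors (Ddit3, Atf3, Atf5), feedback genes, and enzymes and transporters that supply amino acids. The ER branch is sensed by Ern1, Atf6 and Eif2ak3 and leads, through Xbp1 and Atf6, to chaperones, foldases and the machinery that degrades misfolded protein. In tumors the response is known to follow low oxygen and shortage of nutrients. Atf4 and Xbp1 are controlled largely after transcription, so their mRNA levels are not a measure of their activity.

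Sequences of some members show features known from the ER branch, though not from all of its members. One is the stretch of the Xbp1 mRNA that Ern1 removes to make the active factor, 26 bases in capitals with 10 bases on either side, on chr11:5524279-5524304 (GRCm38, plus strand) in an exon of Xbp1 by GENCODE M21. A scan of the transcript for the Ern1 cut pattern CNGCNGN at that spacing found 2 pairs, of which this is the one known to be used.
Xbp1: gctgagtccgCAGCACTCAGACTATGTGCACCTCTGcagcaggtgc
The deposited values count both forms of Xbp1 together, so the excision was not measured.

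Another is the end of the coding sequence, which in many chaperones of the ER encodes the signal that returns the protein to that compartment. Below, capitals mark the last 4 codons before the stop codon, from the GENCODE M21 transcripts.
Hspa5: gaggatacatcagaaAAAGATGAGTTGtag
Hsp90b1: aaggaatctacagagAAGGATGAATTGtaa
Calr: tcccctggccaagccAAGGATGAGCTGtag
Hyou1: aagcggccttcaaagAACGATGAACTAtaa
Sdf2l1: gatctctccacgggtCACGATGAACTCtga
Asns: acccattataagtcaGCTGCCAAAGCTtag
The pattern AANGANGANNTN directly before the stop was found in 6 of the 12 chaperones and foldases (Hspa5, Hsp90b1, Calr, Hyou1, Pdia4 and Pdia6). It was found in 0 of the 4 sensors and factors and 0 of the 4 degradation genes of the ER branch. In the Atf4 branch it was found in 0 of the 22 members. Among 12836 genes of the mouse table with a coding sequence it was found in 23, or 0.179%. Sdf2l1 ends in related codons outside the pattern, and Asns, an enzyme of the cytosol, is shown for contrast.

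Mouse reads numbered between 15346400 and 26669410 in a library and rat reads between 3146720 and 10015352, with the fewest rat reads in the cores (3146720 to 4221679). In the pellet 0.718% of reads were assigned to the rat, and in the glands 1.78% and 1.963% to the mouse. Hypoxia genes move with the core: 8 of 10 rose in the 4T1 cells and 6 of 9 in the host, while 8 of 8 mitosis genes fell in the 4T1 cells and 5 of 8 rose in the host. The share of mitochondrial reads was 1.835 to 2.566% in the cores and 1.654 to 1.912% in the rims among mouse reads, and 2.576 to 3.253% and 2.049 to 2.608% among rat reads. The 5 markers of the epithelial tumor cells summed among mouse reads to 2270 to 3740 CPM (reads scaled to library size, as the authors deposited them) in the cores, 3990 to 4850 CPM in the rims and 1880 to 2820 CPM in the lungs. The part of these changes in the values below was not tested. One library stands apart. The sum of 4 alveolar markers (Sftpc, Sftpb, Sftpa1 and Ager) among rat reads was 17.2 CPM in the library labelled lung of Rat3789, against 7820 to 13500 CPM in the other 4 lungs and 9.66 to 88.3 CPM in the rims. This library also had the highest rat macrophage and fibroblast marker sums of the lungs (9930 and 8790 CPM), and the counts of members called in the lung are given with and without it; the pathway, hypoxia, pellet and correlation values include it. In such bulk samples, fewer cells of a kind and less RNA per cell cannot be told apart.

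The first comparison is between the core and the rim within the 4T1 cells, with the animal as a block. Levels are the authors' normalized CPM, differences are on the log2 scale with their standard error (SE), and a gene was called where limma's adjusted p was under 0.05. Of the 41 members tested, 12 rose in the core, 2 fell and 27 were not called; Vldlr lay below the filter on low values. Over all 13070 genes tested, 19.8% were called (10.1% higher, 9.63% lower). The median difference of the members was 0.26, against 0.01 for all genes. Cores and rims did not overlap for 8 of the 41 members (19.5%), all of them called, where 14.3% of all genes had groups without overlap. By branch, in the Atf4 branch 9 of 21 rose and 1 fell (median 0.60), and in the ER branch 3 of 20 rose and 1 fell (median 0.21). Whether the branches differ was not tested.

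All 6 transcription factors of the Atf4 branch rose in the core. In the order Rat3867, Rat3869, Rat3875, Rat3876 and Rat3877, which holds for all core and rim values below, Atf4 stood at 273, 375, 260, 187 and 270 CPM in the cores and at 132, 189, 148, 160 and 262 CPM in the rims. All 5 animals had the higher Atf4 in the core, by 0.62 ± 0.16 (SE, adjusted p = 0.0268), but the rim of Rat3877 overlapped the cores. The call on Atf4 was lost without Rat3867, Rat3869 or Rat3875 (adjusted p = 0.0947, 0.0748 and 0.0953). Ddit3, which encodes the factor CHOP that is tied to cell death under lasting stress, gave 47.9, 55.4, 60.8, 25.2 and 51.5 CPM in the cores and 7.56, 15.4, 9.79, 11.2 and 36.3 CPM in the rims. The difference of Ddit3 was 1.76 ± 0.30 (adjusted p = 0.00622), with overlap only through the core of Rat3876, the lowest core, and the rim of Rat3877, the highest rim.

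The largest difference was that of Atf3, a stress-induced partner and repressor of other factors. Its cores read 82.3, 58.9, 36.0, 7.21 and 29.8 CPM and its rims 2.72, 8.71, 9.07, 4.84 and 20.9 CPM. The difference of 2.15 ± 0.56 (adjusted p = 0.0294) was positive in 5 of 5 animals, yet the core of Rat3876 lay within the rims, and the call was lost without Rat3869 or Rat3875 (adjusted p = 0.0847 and 0.083). Atf5, itself translated under stress, read 118, 285, 129, 99.8 and 171 CPM in the cores and 28.5, 81.9, 32.8, 45.8 and 135 CPM in the rims, a difference of 1.46 ± 0.23 (adjusted p = 0.00491). Only the rim of Rat3877 reached the range of the Atf5 cores. Cebpb, a partner of Atf4 that also serves inflammatory signals, read 321, 188, 153, 155 and 266 CPM in the cores and 85.3, 103, 51.7, 80.1 and 71.6 CPM in the rims. All Cebpb cores were above all rims (1.44 ± 0.17, adjusted p = 0.00184). Nupr1, a small stress protein of chromatin, ranged from 196 to 332 CPM in the cores and from 68.0 to 177 CPM in the rims (0.95 ± 0.21, adjusted p = 0.0155); without Rat3875 its adjusted p was 0.0579.

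Among the feedback genes, Ppp1r15a, which encodes the phosphatase subunit that reverses eIF2 phosphorylation, read 44.9, 43.4, 38.8, 14.5 and 33.4 CPM in the cores and 8.51, 9.17, 10.7, 9.21 and 13.1 CPM in the rims. Its cores were all above its rims (1.70 ± 0.24, adjusted p = 0.00326), although the core of Rat3876 was only just above the highest rim. Chac1, an enzyme that breaks down glutathione, read 12.7, 21.6, 7.19, 5.13 and 6.79 CPM in the cores and 2.97, 4.13, 5.26, 5.35 and 17.8 CPM in the rims; the difference of 0.70 ± 0.50 was not called (adjusted p = 0.357). Neither Sesn2, an inhibitor of mTORC1 (0.60 ± 0.29, adjusted p = 0.188), nor Trib3, a pseudokinase that restrains Atf4 (0.38 ± 0.27, adjusted p = 0.365), was called. Vldlr, a lipoprotein receptor, was at most 1.02 CPM in any mouse library, and the glands' rate of misassigned rat reads would give 144% of its rim reads, so its mouse values are not read further. At that rate, rat reads would make up 14.9% of the Mthfd2 reads and 10.9% of the Slc7a5 reads in the rims, and 9.45% and 2.99% in the cores. With the expected reads subtracted, the same 14 mouse members were called.

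**Figure D1:**
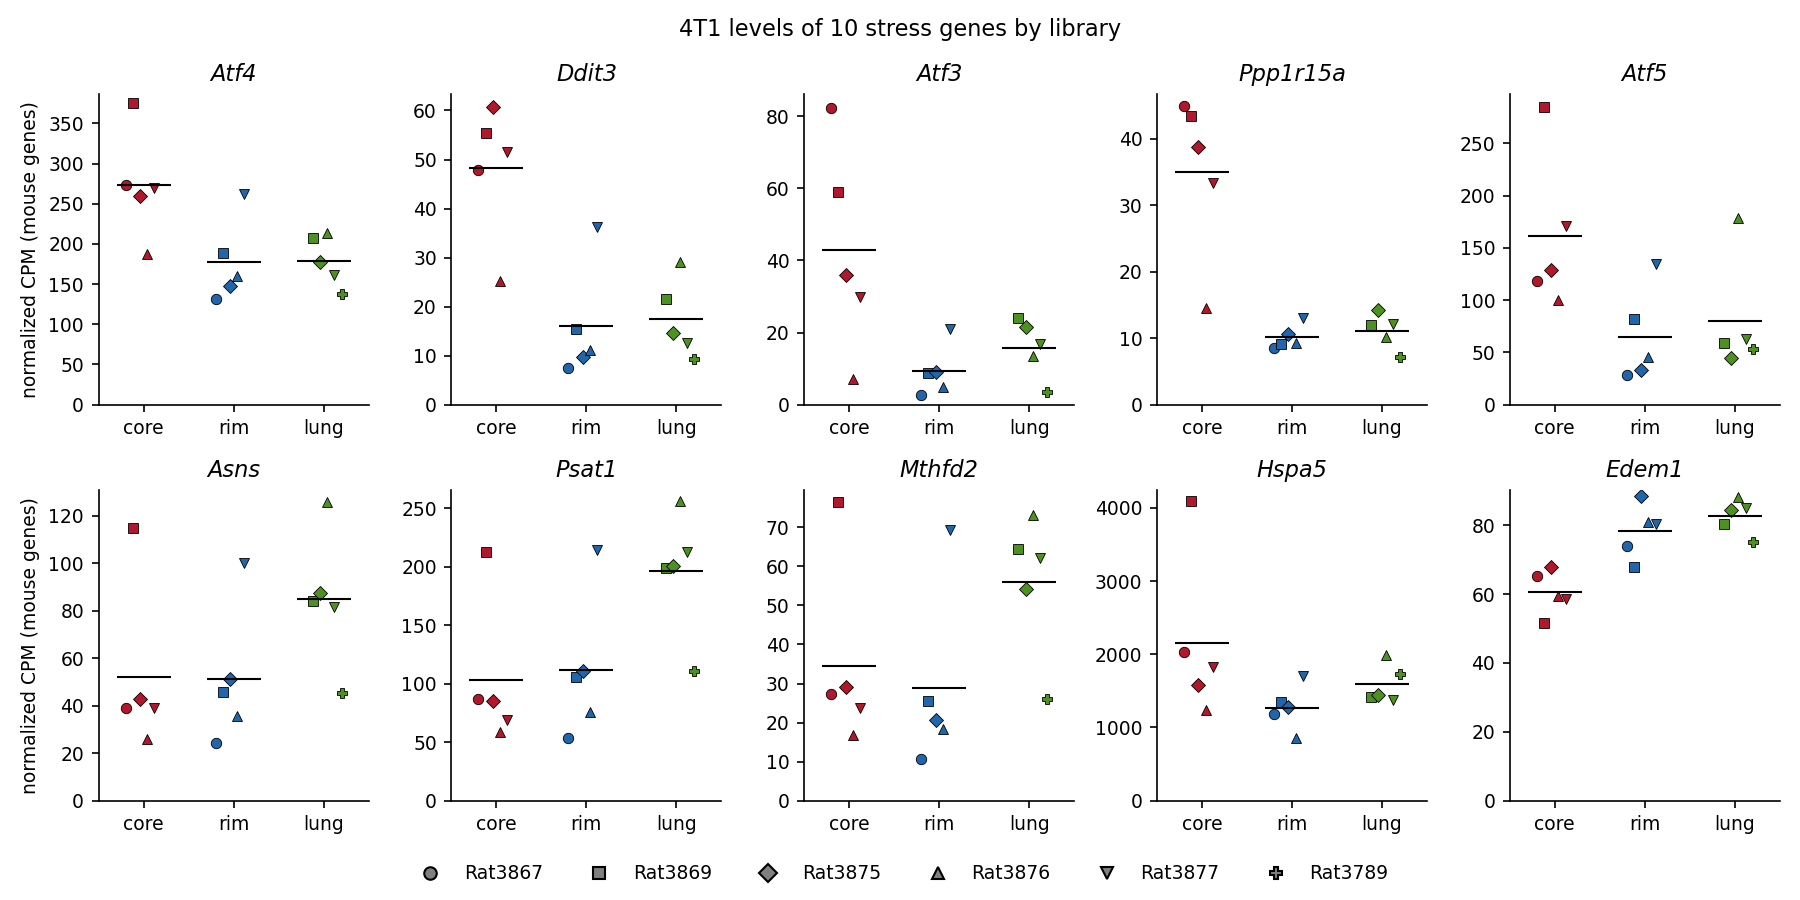
Normalized CPM of 10 mouse genes (vertical axes, starting at 0) in each core, rim and lung library; symbols mark the animals and lines the group means. The factors and Ppp1r15a have higher means in the cores than in the rims, with Rat3876 the lowest core in each. Asns, Psat1 and Mthfd2 are high in the core of Rat3869, the rim of Rat3877 and 4 of the 5 lungs.

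With every animal included, the amino acid enzymes of the same branch were not called higher as the factors were. None of the 8 was called higher by limma, edgeR or DESeq2 and 1, Cth, was called lower; 2 had an unadjusted p under 0.05 in limma, and the median difference was -0.07. Asns, which makes asparagine, read 39.1, 115, 43.0, 25.8 and 39.0 CPM in the cores and 24.1, 45.9, 51.1, 35.5 and 100 CPM in the rims. Its groups overlapped throughout and the difference was -0.01 ± 0.33 (adjusted p = 0.987). Cth, which makes cysteine from cystathionine, read 5.57, 10.9, 7.24, 11.1 and 6.93 CPM in the cores and 21.8, 20.4, 13.0, 24.1 and 17.2 CPM in the rims. Every Cth core was below every rim (-1.23 ± 0.18, adjusted p = 0.00377). The serine enzymes Psat1 (-0.14 ± 0.33) and Phgdh (-0.17 ± 0.18), the mitochondrial folate enzymes Shmt2 and Mthfd2 (0.35 ± 0.40), and Pycr1 (0.55 ± 0.23, adjusted p = 0.122) and Aldh18a1 of proline synthesis were not called. Leaving out Rat3877 gave a median difference of 0.18 for the 8 enzymes, with 0 called higher. Leaving out Rat3876 and Rat3877 gave a median of 0.33, with Mthfd2 called higher (1.14 ± 0.22, adjusted p = 0.0173) and Cth lower. Asns (0.59 ± 0.26) and Phgdh (0.05 ± 0.20) were not called in that fit. The result for the enzymes thus depended in part on these animals. Phgdh has 8 near copies in the annotation, with 5777 mouse reads on them against 50029 on Phgdh itself, so its level is uncertain to that extent.

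Transporters split. Slc3a2 and Slc7a5, the heavy and light chain of the exchanger that brings in large neutral amino acids, rose by 0.84 ± 0.08 (adjusted p = 0.000924) and 0.90 ± 0.14 (adjusted p = 0.0044). The cores of Slc3a2 ranged from 235 to 293 CPM and its rims from 119 to 163 CPM; those of Slc7a5 ranged from 202 to 279 CPM and from 87.3 to 150 CPM. Neither pair of groups overlapped. Slc7a1, the carrier of arginine and lysine, ranged from 89.5 to 147 CPM in the cores and from 74.6 to 154 CPM in the rims and was not called.

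Among mouse genes over the 15 tumor and lung libraries, Pearson's r between pairs of enzymes had a median of 0.77 (28 pairs). It was 0.61 between pairs of factors and feedback genes (45 pairs) and 0.27 between an enzyme and a factor or feedback gene (80 pairs). Asns followed Psat1 (r = 0.98), Mthfd2 (0.96), Phgdh (0.95) and Slc7a1 (0.91), but not Ppp1r15a (0.05) or Slc3a2 (0.03). Not every pair kept to this split: Chac1, counted with the feedback genes, followed Mthfd2 (0.95) and Asns (0.89), and Sesn2 followed Asns (0.86). The genes most like Atf4 were Ddit3 (0.95), Atf5 (0.90), Atf3 (0.86) and Ppp1r15a (0.84). Cth went with none of the other enzymes named here (r from -0.35 to -0.06). In the host the medians were 0.05 for pairs of enzymes (15 pairs) and 0.20 for pairs of factors and feedback genes (45 pairs). Between an enzyme and a factor or feedback gene the host median was 0.05 (60 pairs). These are descriptions over libraries that share animals and regions.

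Taken by animal, the mean log2 level of the 10 factors and feedback genes was higher in the core by 1.85, 1.63, 1.47, 0.55 and 0.38 in the animals' order above (mean 1.18 ± 0.66 SD, n = 5). The same mean over the 8 enzymes differed by 0.17, 0.75, -0.16, -0.32 and -1.04 (mean -0.12 ± 0.66 SD). Both sets had their lowest values in Rat3876 and Rat3877.

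**Figure D2:**
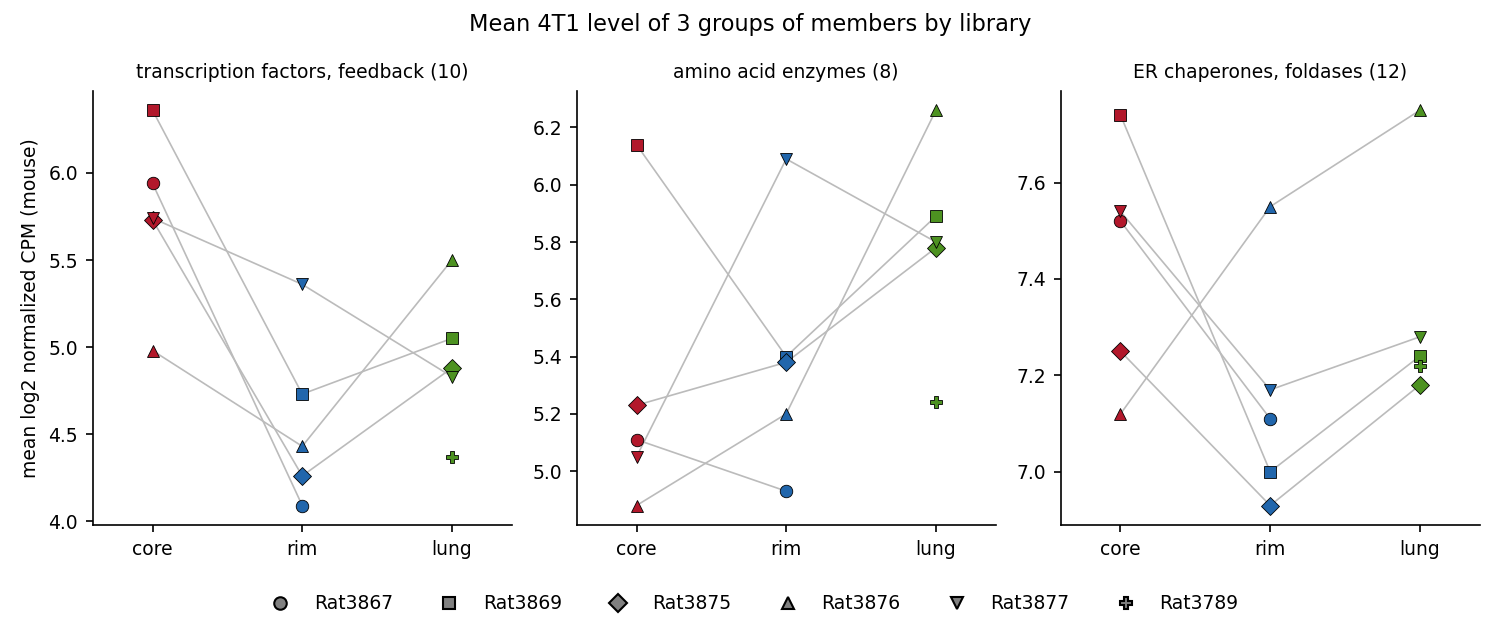
Mean log2 normalized CPM (vertical axes, which do not start at 0) of 3 groups of mouse members in each core, rim and lung library; grey lines join libraries of 1 animal. The factors and feedback genes are higher in the core in 5 of 5 animals (by 0.38 to 1.85), the enzymes in 2 of 5, and the chaperones in 4 of 5.

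In the ER branch of the 4T1 cells, 3 of 12 chaperones and foldases rose. Hspa5, the main Hsp70 chaperone of the ER, read 2030, 4090, 1580, 1240 and 1830 CPM in the cores and 1180, 1350, 1280, 861 and 1700 CPM in the rims. Hspa5 was higher in the core in 5 of 5 animals (0.66 ± 0.20, adjusted p = 0.0463), the groups overlapped, and the call was lost without the block (adjusted p = 0.108), with total-count scaling (0.0534) and without any 1 of Rat3867, Rat3869, Rat3875 or Rat3876 (0.0596 to 0.129). Hyou1, its nucleotide exchange partner, read 213, 199, 179, 169 and 253 CPM in the cores and 128, 115, 115, 165 and 150 CPM in the rims. Hyou1 did not overlap (0.59 ± 0.12, adjusted p = 0.0125), but lost its call without Rat3867 or Rat3875 (0.0505 and 0.0501). Dnajb9, a co-chaperone that acts on Hspa5 and Ern1, read 75.3, 60.8, 59.1, 51.9 and 60.5 CPM in the cores and 43.0, 39.0, 25.3, 45.7 and 31.3 CPM in the rims. Its cores were all above its rims (0.76 ± 0.15, adjusted p = 0.00952).

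The other 9 chaperones and foldases were not called, with differences from -0.04 (Dnajc3) to 0.33 (Manf). In all 9 the rim of Rat3876 was above its core, a pattern noticed after the values were seen. Mouse reads made up 65.7% of this rim library, against 79.6 to 81.3% of the other rims. Rat skeletal muscle markers were also highest in the core (3070 CPM) and rim (757 CPM) of Rat3876 among cores and rims. The part of this make-up in the pattern was not tested. Hsp90b1, the Hsp90 of the ER, read 797, 937, 695, 651 and 768 CPM in the cores and 722, 633, 636, 1150 and 861 CPM in the rims (-0.03 ± 0.18, adjusted p = 0.928), and Sdf2l1 read 16.0, 19.5, 14.9, 12.6 and 19.6 CPM against 10.6, 11.8, 11.0, 26.7 and 13.1 CPM (0.25 ± 0.26, adjusted p = 0.531). Genes whose coding sequence ends in the pattern shown above were thus found on both sides, with Hspa5 and Hyou1 called and Hsp90b1, Calr, Pdia4 and Pdia6 not. With all 5 animals, none of the 4 sensors and factors was called by limma, edgeR or DESeq2, and 1, Xbp1, had an unadjusted p under 0.05 in limma. Xbp1 read 218, 119, 156, 222 and 240 CPM in the cores and 171, 145, 107, 159 and 125 CPM in the rims, with overlap (0.41 ± 0.16, adjusted p = 0.0996); without Rat3869 it was called (0.58, adjusted p = 0.0177). Among the 4 genes of ER-associated degradation, Edem1, a lectin that delivers misfolded glycoproteins, fell. It read 65.1, 51.7, 67.7, 59.5 and 58.6 CPM in the cores and 74.0, 67.7, 88.5, 80.9 and 80.3 CPM in the rims (-0.37 ± 0.09, adjusted p = 0.0208), and every core but that of Rat3875, which at this rounding equals the lowest rim, was below all rims. The Edem1 call was lost without Rat3875 or Rat3876 (adjusted p = 0.0755 and 0.0634).

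In all, 8 of the 14 calls were made under each of the 14 alternatives tried: Atf5, Ddit3, Cebpb, Ppp1r15a, Slc3a2, Slc7a5, Dnajb9 and Cth. Without Rat3875 these 8 alone were called, with 1272 genes called in all, against 2585 with every animal. Reads were counted with a strand setting not given in the sources used here, and 11 of the 42 mouse genes share exon sequence with a gene on the opposite strand. Atf5 (with Nup62 and Il4i1), Ddit3 (with Mars), Cebpb (with Tmem189), Ppp1r15a (with Tulp2) and Shmt2 (with Ndufa4l2) are among them. Reads of these partners cannot be told apart without strand. Some overlaps are on the same strand, where strand would not help, as for Ddit3 with another entry of that name and Manf with Rbm15b.

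Around the members, 6 lists name 73 further symbols of the pathway, 1 of which (Hrd1) is an older name of the member Syvn1 and has no row. In the 4T1 cells 8 of 68 tested rose in the core and 4 fell (median 0.16), so that 17.6% were called, where 19.8% of all genes were. Among 16 other Atf4 targets tested, 4 rose and 1 fell: the secreted glycoprotein Stc2 rose by 2.44 ± 0.50 and the cystine exchanger Slc7a11 by 1.99 ± 0.52, while the cell cycle inhibitor Cdkn1a fell (-1.26 ± 0.20). The other risers of that list, named after their values were seen, were Slc6a9 and Slc1a4, carriers of glycine and of neutral amino acids. One of 12 tRNA synthetases (Sars) rose. In the folding list Sil1 and Selenok rose, and Uggt1 (-0.46 ± 0.10) and Dnajc10 (-0.35 ± 0.08) fell. Derl1 was the only call in the degradation list, at 0.55 ± 0.12, and the eIF2 kinase Eif2ak2 fell in the initiation list (-0.65 ± 0.14). The list of Atf6 processing and Ern1 partners had 0 of 8 calls by limma, with 2 at an unadjusted p under 0.05.

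The same comparison in the host asks how the rat tissue of the core differed from that of the rim. Of the 39 rat members, 14 rose in the core, 3 fell and 22 were not called, where 37.6% of all 13559 genes tested were called (17.5% higher, 20.1% lower). The members' median was 0.24, against -0.00 for all genes. Cores and rims did not overlap for 8 of the 39 members (20.5%), all of them called, where 26.4% of all genes had groups without overlap. In the Atf4 branch 8 of 19 rose and 3 fell (median 0.38). In the ER branch 6 of 20 rose and 0 fell (median 0.21). Of these 20, 10 had an unadjusted p under 0.05 in limma, and among the 10 only Eif2ak3 was lower in the core (-0.26 ± 0.09). Rat fibroblast markers (4 of 5 listed genes in the table) summed to 2200 to 7330 CPM in the cores and to 15200 to 31400 CPM in the rims, and the 4 neutrophil markers to 168 to 1180 CPM and 121 to 169 CPM. The part of this change of cells in the results below was not tested.

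Rat Atf3 rose most, as its mouse counterpart did. It read 248, 183, 301, 175 and 218 CPM in the cores and 20.4, 71.0, 42.8, 38.6 and 103 CPM in the rims, without overlap (2.21 ± 0.33, adjusted p = 0.00138). Atf4 itself was at 462, 457, 599, 427 and 405 CPM in the cores and at 238, 369, 278, 275 and 346 CPM in the rims, also without overlap (0.65 ± 0.14, adjusted p = 0.00769). Ddit3 was at 83.7, 78.6, 42.8, 33.5 and 83.9 CPM in the cores and at 25.7, 32.4, 19.9, 18.7 and 51.3 CPM in the rims, with the rim of Rat3877 inside the range of the cores (1.13 ± 0.15, adjusted p = 0.000858). Trib3 was at 18.1, 24.4, 26.6, 16.2 and 16.3 CPM in the cores and at 6.34, 15.9, 6.57, 4.63 and 9.83 CPM in the rims. All Trib3 cores were above all rims (1.34 ± 0.25, adjusted p = 0.00372). Cebpb (1.04 ± 0.24), Ppp1r15a (1.09 ± 0.18) and the transporter chain Slc3a2 (0.43 ± 0.10) also rose.

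Rat enzymes went in both directions. Phgdh, the first enzyme of serine synthesis, read 25.6, 22.8, 43.4, 20.9 and 18.3 CPM in the cores and 11.4, 14.9, 5.45, 8.76 and 17.4 CPM in the rims, a rise without overlap (1.22 ± 0.37, adjusted p = 0.0299); the call was lost without Rat3867 or Rat3876 (0.0675 and 0.0681). Psat1, the next enzyme of the same pathway, fell (-0.96 ± 0.27, adjusted p = 0.0236), and Pycr1 read 2.06, 2.68, 2.38, 2.01 and 1.39 CPM in the cores and 8.15, 6.04, 4.79, 6.91 and 4.96 CPM in the rims (-1.56 ± 0.29, adjusted p = 0.00421). Atf5 fell as well (-1.04 ± 0.27, adjusted p = 0.018). Without Rat3876 and Rat3877, 11 members were called, all of them higher, with 3351 genes called in all, against 5092 with every animal. The values of these 3 genes were then -1.39 (Pycr1, adjusted p = 0.0527), -0.80 (Psat1, 0.144) and -0.46 (Atf5, 0.12). The Atf5 call was also lost without either animal alone (0.0566 and 0.0545), and that of Psat1 without Rat3867 or Rat3877 (0.0754 and 0.0786). Asns read 21.7, 29.8, 32.6, 22.7 and 18.3 CPM in the cores and 22.4, 33.9, 27.3, 27.5 and 30.3 CPM in the rims, with overlap, and was not called (-0.20 ± 0.16, adjusted p = 0.356).

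Some rat values rest on few reads, and mouse reads can be assigned to the rat. At the rate seen in the pellet, mouse reads would make up 62.6% of the rat Chac1 reads in the cores, 24.5% of those of Atf5, 12.4% of those of Syvn1 and 11.4% of those of Psat1; the median over the members is 2.56%. With these reads subtracted, the falls of Atf5 (-1.39 ± 0.29) and Psat1 (-1.09 ± 0.30) were larger and Chac1 was called lower (-2.82 ± 0.88, adjusted p = 0.0392). As deposited, Chac1 read 0.850, 2.99, 1.43, 4.17 and 1.64 CPM in the cores and 4.33, 7.62, 3.23, 2.78 and 4.38 CPM in the rims and was not called (-1.14 ± 0.44, adjusted p = 0.0733).

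The 6 ER genes that rose in the host were all chaperones or their partners. Sdf2l1, a subunit of an ER chaperone complex, read 132, 142, 116, 135 and 120 CPM in the cores and 83.7, 75.9, 64.0, 78.2 and 65.1 CPM in the rims. This was the clearest change of the branch, without overlap (0.82 ± 0.08, adjusted p = 0.000224). Hspa5 read 1190, 1320, 909, 966 and 1160 CPM in the cores and 887, 885, 755, 809 and 886 CPM in the rims, again without overlap (0.38 ± 0.09, adjusted p = 0.0138). Manf, a secreted ER stress factor, read 209, 296, 193, 154 and 213 CPM against 163, 173, 149, 146 and 155 CPM (0.41 ± 0.11, adjusted p = 0.0174), with the core of Rat3876 inside the range of the rims. Hyou1 read 281, 170, 214, 228 and 280 CPM against 194, 181, 135, 175 and 168 CPM, and the core of Rat3869 was below its rim (0.44 ± 0.12, adjusted p = 0.0229). Creld2 read 68.4, 61.6, 39.0, 56.1 and 58.4 CPM against 46.4, 39.3, 30.2, 49.4 and 52.5 CPM (0.38 ± 0.11, adjusted p = 0.0258). Its groups overlapped, and its call was lost without the block (adjusted p = 0.113). The co-chaperone Dnajb11 rose by 0.29 ± 0.08. Xbp1 read 303, 185, 226, 210 and 301 CPM against 239, 213, 295, 214 and 254 CPM and was not called (-0.00 ± 0.12, adjusted p = 0.985). The remaining 6 chaperones and foldases differed by -0.19 (Pdia4) to 0.27 (Calr) and were not called. Averaged over the 20 ER genes, the core was higher in 5 of 5 animals, by 0.14 to 0.24.

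Of the 17 host calls, Atf4, Ddit3, Trib3, Atf3, Ppp1r15a, Cebpb, Slc3a2 and Sdf2l1 were made under each of the 14 alternatives. In the pathway lists of the host, 15 of 57 genes tested rose and 9 fell (median 0.04); 42.1% were called, against 37.6% of all genes. Of 11 initiation genes 5 rose, among them Eif2b3 (0.43 ± 0.11) and Eif2s1 (0.40 ± 0.09), and Eif2ak2 fell (-0.51 ± 0.14). Of the other Atf4 targets, the cytokine Gdf15 and Cdkn1a each rose by 1.42 (SE 0.34 and 0.12), and Slc6a9 (-1.33 ± 0.25) and Slc38a2 (-0.37 ± 0.10) fell. In the folding list Canx rose (0.31 ± 0.09) and the disulfide isomerase Txndc5 (-1.08 ± 0.08) and Dnajc10 (-0.75 ± 0.11) fell. The lectin Edem2 rose by 0.50 ± 0.11, and Creb3l2, a membrane-bound factor of secretory cells, fell (-1.31 ± 0.20).

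**Figure D3:**
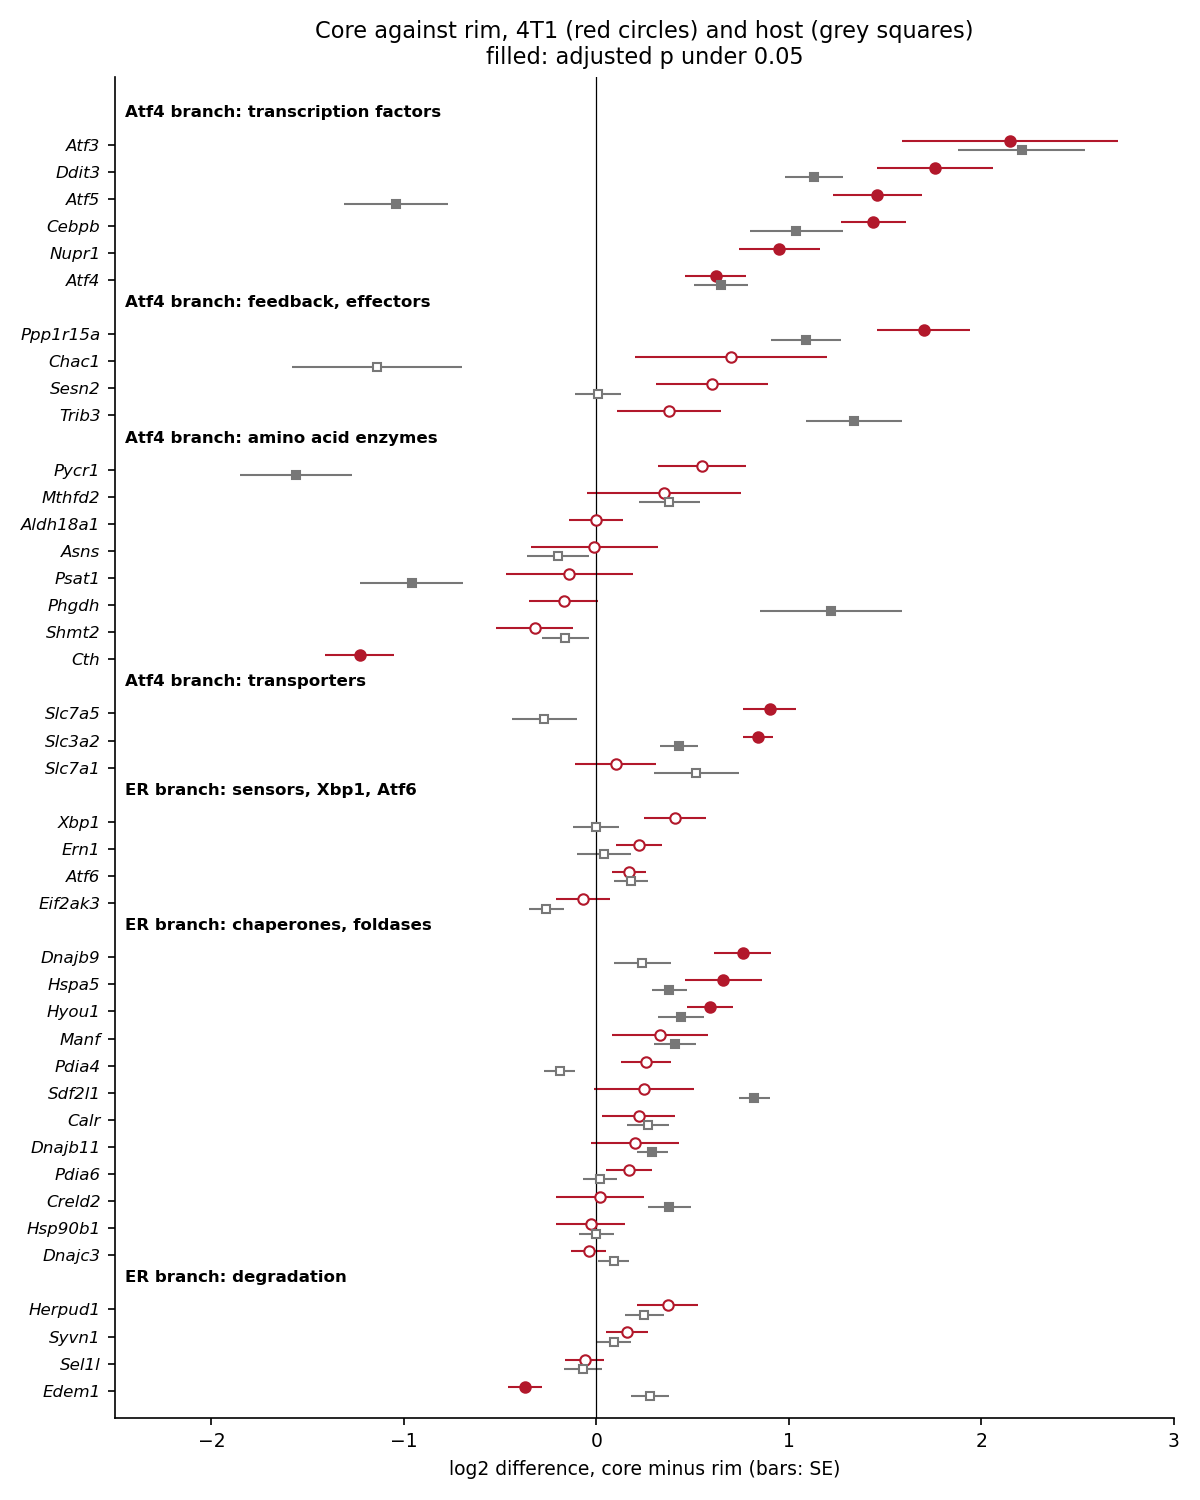
Log2 difference between core and rim (horizontal axis, bars are SE) for each member in 4T1 cells (red circles) and host tissue (grey squares), by role; filled symbols have an adjusted p under 0.05. All 6 mouse factors are filled to the right, 7 of 8 mouse enzymes are open, and rat Atf5, Psat1 and Pycr1 lie to the left.

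Whether the difference between core and rim was unlike in tumor and host was tested per animal for the 38 members that passed the filter in both species. Of these 4 were called, against 34.7% of all 9740 genes (17.8% with the mouse above the rat, 16.9% below). Atf5 rose in the 4T1 cells (1.46) and fell in the host (-1.04), a gap of 2.50 ± 0.28 (adjusted p = 0.0052) with the mouse above in 5 of 5 animals. Pycr1 differed by 2.11 ± 0.26 (adjusted p = 0.0052) and Slc7a5 by 1.17 ± 0.25 (adjusted p = 0.0122), both with the mouse above in 5 of 5 animals. Edem1 went the other way (-0.65 ± 0.14, adjusted p = 0.0115), with the mouse below in 5 of 5 animals. These 4 were called under each of the 7 alternatives. Without Rat3869 the count was 7, with Phgdh, Slc7a1 and Trib3 added, and 3301 genes were called in all. Atf3 (-0.06 ± 0.46) and Ddit3 (0.64 ± 0.25, adjusted p = 0.0919) were not called as different.

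**Figure D4:**
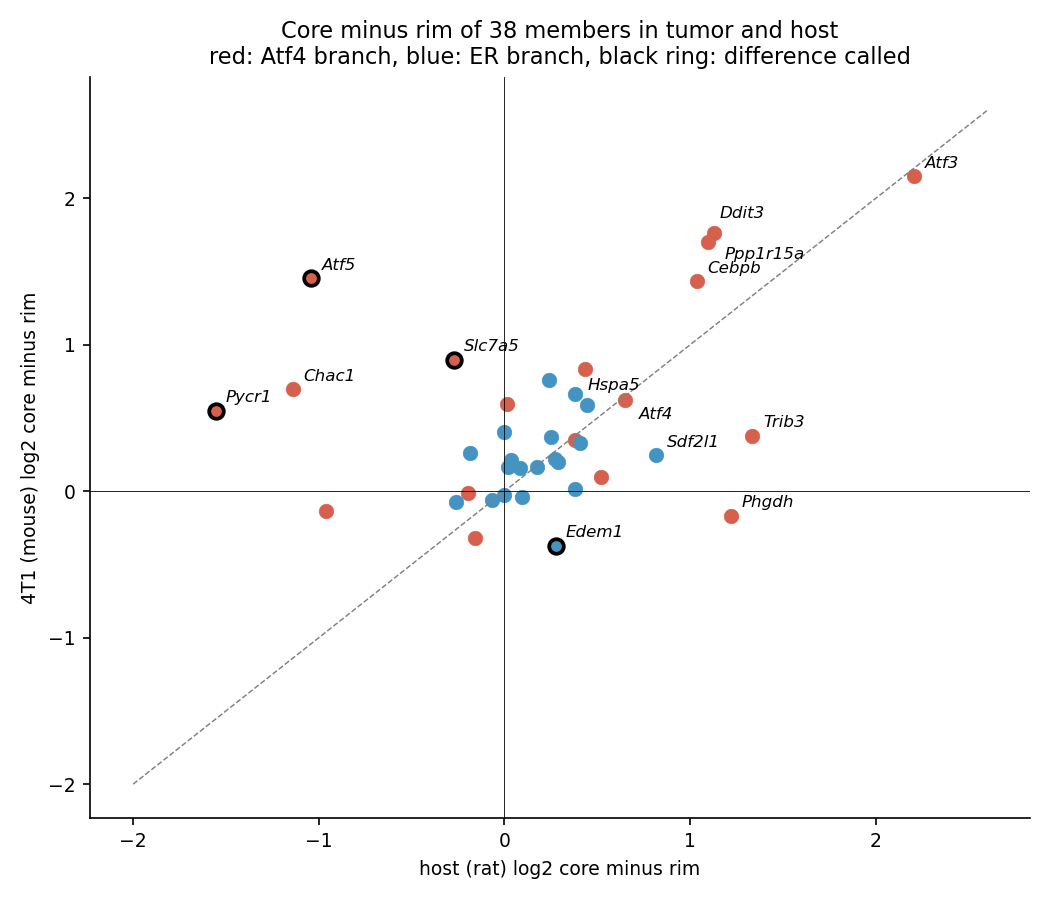
Log2 difference between core and rim in the host (horizontal) against that in 4T1 cells (vertical) for 38 members (red: Atf4 branch, blue: ER branch, ringed: difference called); the dashed line marks equal differences. Atf3, Ddit3, Ppp1r15a and Cebpb lie above 1 in both, while the ringed Atf5, Pycr1 and Slc7a5 lie above the line and Edem1 below it.

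In the lungs, the comparison is between 4T1 cells there and in the rim, without a block since only 4 animals gave both. Of 41 members 6 rose and 1 fell, where 20.1% of all 12970 genes were called (9.91% higher, 10.2% lower); the median was 0.22, against 0.01 for all genes. With total-count scaling 1717 genes were higher and 1108 lower, in place of 1285 and 1318, and all 7 members kept their call, with Atf6 added. None of the 6 transcription factors was called by limma, edgeR or DESeq2, and 0 had an unadjusted p under 0.05 in limma. Atf4 read 138, 207, 177, 214 and 161 CPM in the lungs of Rat3789, Rat3869, Rat3875, Rat3876 and Rat3877, within the range of the rims. Ddit3 read 9.22, 21.5, 14.6, 29.0 and 12.5 CPM in these lungs, also within that range. Of 10 hypoxia genes 5 were called here, all lower in the lung; their part in the member values was not tested.

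The enzymes had a median of 0.51 in the lung against the rim. Asns read 45.5, 84.0, 87.5, 126 and 81.8 CPM in the lungs, in the order just given, and Chac1 5.45, 16.7, 15.3, 21.9 and 17.3 CPM. In both, the lung of Rat3789 was the lowest, and neither gene was called (Asns 0.82 ± 0.34, adjusted p = 0.108; Chac1 1.28 ± 0.47, adjusted p = 0.0703). Shmt2 read 146, 202, 197, 217 and 210 CPM in the lungs and 95.8, 116, 139, 111 and 198 CPM in the rims and rose (0.59 ± 0.18, adjusted p = 0.0352). Cth read 7.28, 9.13, 6.40, 10.3 and 6.50 CPM in the lungs and fell as it did in the core, without overlap with the rims (-1.28 ± 0.19, adjusted p = 0.00137). Since the rims serve in both comparisons, the low Cth of core and lung rests on the same 5 rim values.

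Without the library of Rat3789, 12 members rose and 1 fell, and 2831 genes were called in all (1397 higher). Asns (1.03 ± 0.33, adjusted p = 0.0446), Psat1 (1.11 ± 0.31, adjusted p = 0.0277), Mthfd2 (1.43 ± 0.41, adjusted p = 0.0294), Phgdh (0.59 ± 0.15, adjusted p = 0.0219), Chac1 (1.62 ± 0.41, adjusted p = 0.0188) and Atf6 (0.36 ± 0.11, adjusted p = 0.0436) were added. With that, 5 of the 8 enzymes were called higher and 0 of the 6 factors was called, although the factor Atf3 differed by 1.32 ± 0.47 (adjusted p = 0.0664). With the animal as a block in the 4 animals that gave both tissues, 8 rose and 2 fell, with 2436 genes called in all. Sesn2, Slc7a1 and Slc7a5 lost their call (adjusted p = 0.067, 0.057 and 0.0749), and Nupr1 fell (-0.50 ± 0.14, adjusted p = 0.0454). Asns (0.80 ± 0.28, adjusted p = 0.0903) and Atf3 (0.96 ± 0.30, adjusted p = 0.0609) were not called in that fit. Without Rat3867, Rat3869, Rat3875 or Rat3876, only 2 or 3 members were called, with 1312 to 1723 genes in all, against 2603 with every library. Without Rat3877, whose rim was high in Asns and Mthfd2, 12 members and 2263 genes were called.

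**Figure D5:**
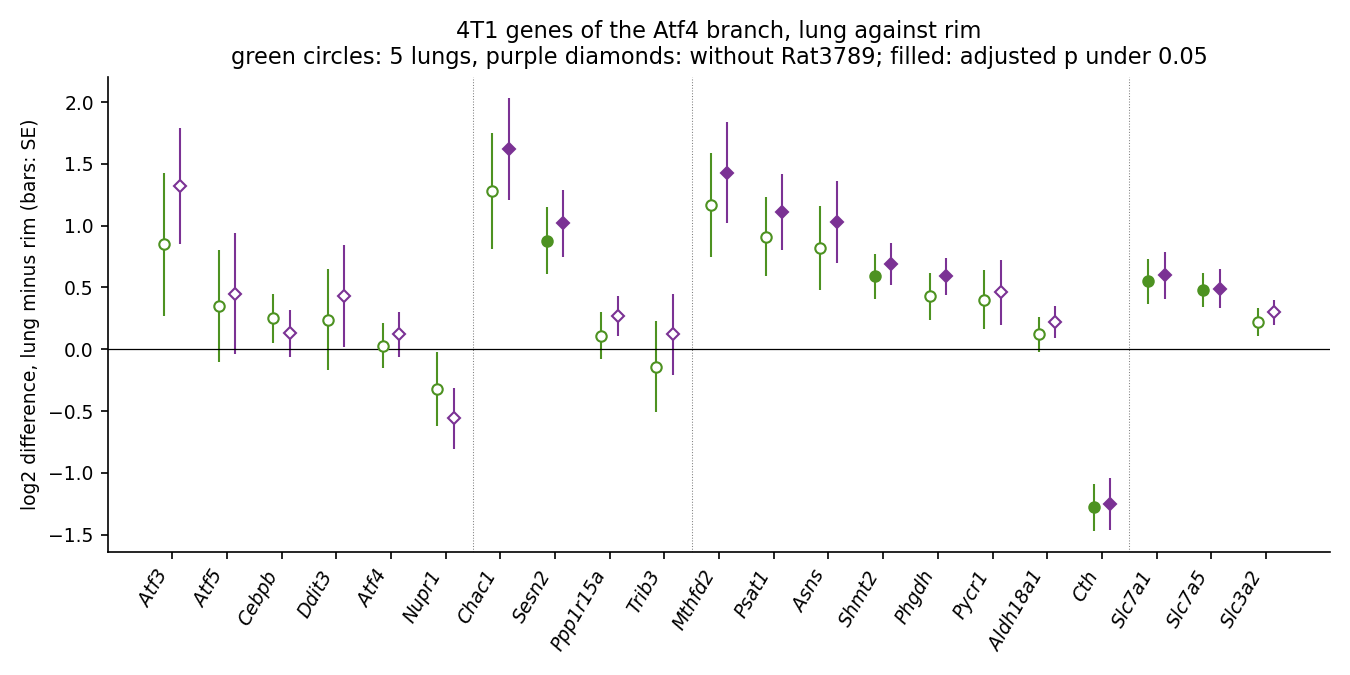
Log2 difference between lung and rim in 4T1 cells (vertical axis, bars are SE) for 21 members of the Atf4 branch, with 5 lungs (green circles) and without that of Rat3789 (purple diamonds); filled symbols have an adjusted p under 0.05. The enzymes other than Cth lie above 0 in both, and 5 of the 8 are filled and above 0 without Rat3789.

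Sesn2 read 5.53, 8.31, 7.11, 13.8 and 8.47 CPM in the lungs and 3.77, 5.01, 4.31, 3.03 and 7.36 CPM in the rims, with overlap (0.88 ± 0.27, adjusted p = 0.0404). The transporters Slc7a1 (0.55 ± 0.18, adjusted p = 0.049) and Slc7a5 (0.48 ± 0.14, adjusted p = 0.0354) rose. In the ER branch, Hyou1 read 228, 184, 186, 317 and 222 CPM in the lungs, all above the rims (0.74 ± 0.15, adjusted p = 0.00701). Herpud1, a membrane part of the degradation complex, read 29.6, 50.9, 43.4, 63.1 and 41.0 CPM in the lungs and 25.5, 28.4, 24.7, 24.6 and 39.6 CPM in the rims (0.66 ± 0.19, adjusted p = 0.033). Only Cth and Hyou1 were called under each of the 14 alternatives, and Slc7a1 lost its call under 9. Hspa5 read 1730, 1420, 1440, 1990 and 1380 CPM in the lungs and was not called. Xbp1 read 293, 139, 128, 149 and 120 CPM, with Rat3789 far above the others. Of 68 pathway genes tested, 9 rose in the lung and 1 fell, or 14.7% against 20.1% of all genes. Slc6a9 (1.12 ± 0.20) and Jdp2 (0.69 ± 0.18) rose most among the other Atf4 targets, and Ddit4, an mTORC1 inhibitor that also answers to low oxygen, fell (-1.33 ± 0.25).

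Host tissue of lung and rim differs by organ. Of 39 rat members 4 rose and 3 fell, where 22.1% of all 13841 genes were called (10.5% higher, 11.6% lower); the median was -0.04, against 0.02 for all genes. Vldlr, at 60.3, 29.5, 37.1, 52.4 and 33.7 CPM in the lungs and 113, 171, 126, 103 and 109 CPM in the rims, fell without overlap (-1.57 ± 0.21, adjusted p = 0.000611) and alone was called under each of the 14 alternatives. Cebpb read 249, 236, 274, 203 and 232 CPM in the lungs and 107, 179, 170, 141 and 203 CPM in the rims, where the lowest lung and the highest rim are equal at this rounding (0.60 ± 0.16, adjusted p = 0.0208). Slc7a5 read 34.3, 54.9, 62.6, 53.1 and 43.3 CPM in the lungs and 64.7, 116, 92.5, 58.3 and 82.8 CPM in the rims (-0.73 ± 0.21, adjusted p = 0.0306). With total-count scaling Slc7a5 and Eif2ak3 lost their call (adjusted p = 0.0637 and 0.0675); that scaling gave 5 members higher, Hyou1 among them, and 1 lower, and 2435 genes higher and 1255 lower in place of 1458 and 1607.

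In the ER branch of the host, Edem1 read 180, 152, 211, 212 and 209 CPM in the lungs and 163, 149, 142, 136 and 159 CPM in the rims (0.36 ± 0.10, adjusted p = 0.0318). Syvn1, the ubiquitin ligase of the degradation complex, read 71.3, 74.8, 67.1, 67.2 and 73.5 CPM in the lungs and 63.9, 61.9, 57.3, 56.5 and 58.7 CPM in the rims, without overlap (0.25 ± 0.07, adjusted p = 0.0239). The sensor kinase Eif2ak3 read 48.6, 40.8, 42.6, 39.7 and 44.1 CPM in the lungs and 52.4, 54.5, 58.6, 50.5 and 50.5 CPM in the rims, all lungs being lower (-0.31 ± 0.08, adjusted p = 0.0204). None of the 12 chaperones and foldases was called by limma, edgeR or DESeq2, and 0 had an unadjusted p under 0.05 in limma. Among members that were not called, Atf4 ranged from 214 to 316 CPM in the lungs, Ddit3 from 13.3 to 27.9, Asns from 23.7 to 39.9, Chac1 from 1.76 to 4.91, Hspa5 from 675 to 1000 and Xbp1 from 203 to 286. Without Rat3789 5 members rose and 3 fell, with 4113 genes called in all, against 3065 with every library. Without Rat3869, Rat3875, Rat3876 or Rat3877 between 1 and 3 members were called, with 1509 to 2043 genes in all. Of 57 pathway genes 11 were called, or 19.3% against 22.1% of all genes, and 4 of 10 folding genes fell, led by P4hb (-0.59 ± 0.14) and Txndc5 (-0.55 ± 0.15).

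The 4T1 pellet gives a reference for the same genes in cells without a host, as 1 library and on plain CPM, with no test. Of the 8 amino acid enzymes, 6 (Asns, Psat1, Phgdh, Shmt2, Mthfd2 and Aldh18a1) had means in core, rim and lung below the pellet's counting interval; the median log2 differences of the 8 were -1.46, -1.27 and -0.89. Cth in the rims (19.3 CPM, pellet 19.8, interval 18.2 to 21.5) and Pycr1 in the cores and lungs (5.42 and 5.31 CPM, pellet 5.89, interval 5.05 to 6.84) lay inside it. Asns stood at 171 CPM in the pellet (exact 95% Poisson interval 166 to 176, counting error only). Its means were 50.4 ± 34.1 CPM in the cores, 51.3 ± 28.9 in the rims and 88.1 ± 30.1 in the lungs (SD, n = 5). Shmt2 and Aldh18a1 in the lungs were at 201 ± 32.2 CPM (pellet 227) and 83.0 ± 17.9 CPM (pellet 100). Their spread between libraries thus reached the pellet's level. In the ER branch, 16 of 20 means were above the pellet in the cores, 13 in the rims and 19 in the lungs, where 53.5%, 56.1% and 57.7% of the 13446 genes with 10 or more pellet reads were. Some of these differences are close to 0 on the log2 scale, such as Creld2 in the cores (0.03), Calr in the rims (0.08) and Dnajb11, Manf and Calr in the lungs (0.04 to 0.06). Ern1 stood furthest above it, at 28.3 CPM in the pellet (26.4 to 30.3) and 117 ± 11.0 CPM in the cores. In the Atf4 branch, 8 of 22 means were above the pellet in the cores, 3 in the rims and 4 in the lungs. Of the factors, Nupr1 was at 44.9 CPM in the pellet (42.5 to 47.4) and 231 ± 58.1 CPM in the cores, and Atf4 was at 402 CPM (395 to 410) and 264 ± 62.6 CPM. Ddit3, Atf3 and Ppp1r15a differed from the pellet by 0.33, -0.05 and 0.2 (log2) in the cores and by -1.2, -2.21 and -1.54 in the rims. Cebpb and Atf5 differed from it by 1.97 and 0.88 in the cores and by 0.55 and -0.38 in the rims.

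In the 2 rat glands, Atf4 stood at 215 and 236 CPM and Atf3 at 6.26 and 9.02 CPM, against 459 ± 69.6 and 220 ± 49.6 CPM of rat reads in the cores and 291 ± 55.7 and 53.7 ± 32.6 CPM in the rims on the same plain scale. Slc7a5 stood at 2.77 and 2.35 CPM in the glands and at 79.8 ± 21.4 CPM in the rims. Not all members were lower in the glands. Atf5 stood at 85.0 and 112 CPM there, against 25.4 ± 7.4 CPM in the cores and 53.8 ± 22.4 CPM in the rims. Chac1 stood at 15.5 and 15.4 CPM, against 2.04 ± 1.36 and 4.23 ± 1.81 CPM. The glands are another tissue, and with 2 libraries these values are given without a test.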

How the data were processed

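PolyA RNA was sequenced by the authors from tumor core, rim and lung (5 libraries each), mammary gland (2) and a 4T1 pellet (1). Per the submitters' processing notes, the tools were STAR, Trim Galore, limma and featureCounts, and the genome builds were Rnor_6.0 and GRCm38. Tool versions, strandedness and how reads were sorted by species are not given in the sources at hand. The authors deposited a normalized signal, CPM on the voom scale, in 1 table per species for tumors and lungs, and whole read counts per gene for the controls. Undoing the voom offset of 0.5 reads and each library's scale turned 100% of these deposited values into whole reads within 0.01 reads. The tables name the regions in and out, and 0 rows were left unmapped. The glands are numbered otherwise in the count table than in the labels and were not matched one to one.

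From these values, log2 of the deposited signal was tested with limma 3.58.1 in R 4.3.3 (trend, two-sided), over genes that reached 1 CPM in 5 or more libraries of a comparison, with Benjamini-Hochberg adjustment over all of them and a threshold of 0.05. Core and rim were compared with the animal as a block, since the labels give the animal of each library; the residuals of core and rim of 1 animal correlated by -0.18 to 0.24 in mouse genes and 0.03 to 0.34 in rat genes. The test of tumor against host used each animal's mouse difference minus its rat difference. edgeR 4.0.16 on the recovered reads, run as a count test, called 2536 mouse and 4993 rat genes between core and rim, and DESeq2 1.42.0 was also tried. Other alternatives were a pseudocount of 1 CPM, no filter, total-count and upper-quartile scaling, the fit with or without the block, leaving out animals, and subtracting the reads expected from the other species. Fits were tested on simulated data. Positions and sequences are from GENCODE M21 (GRCm38); near copies were taken at 95% identity over at least 300 bases with blastn 2.17.0. Promoter motifs were not searched.

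The members, lists and tests were chosen with earlier results of these data known. Values in every library are given for Atf4, Ddit3, Xbp1, Hspa5, Asns, Chac1 (as ranges where not called in rat lung) and the called members with the largest difference (up to 5 a branch between core and rim, 3 a branch in lung); from each pathway list up to 2 genes a direction. P-values measure the spread between animals that carry the same cell line. No molecular identifiers are named in the labels, so counting intervals cover counting error only.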

Additional observations from a re-analysis of the deposited data

Results flagged for a closer look

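Of 255 groups of 5 libraries examined on the log2 scale (every member in each species and region, and the branch means), 23 held a library whose gap to the nearest other exceeded 0.71 of the group's range; chance flags about 1 in 20 such groups. Rat3876 accounts for 13 of them, and the lower share of mouse reads in its rim is given above. In its core, mouse Ddit3 (25.2 CPM, others 47.9 to 60.8) and mouse Ppp1r15a (14.5 CPM, others 33.4 to 44.9) were low. In its rim, mouse Slc7a5 was low (87.3 CPM, others 134 to 150), and the mouse chaperones and ER factors Dnajb11 (98.3 CPM, others 49.6 to 60.3), Sdf2l1 (26.7 CPM, others 10.6 to 13.1), Pdia6 (888 CPM, others 525 to 609) and Manf (115 CPM, others 71.4 to 79.2) were high. In its lung, mouse Atf5 (179 CPM, others 45.0 to 63.1), Pycr1 (8.62 CPM, others 4.15 to 4.49), Hsp90b1 (1030 CPM, others 647 to 732), Calr (871 CPM, others 447 to 536) and Ern1 (170 CPM, others 101 to 106) were high, as was the mean log2 level of the mouse ER branch (7.23, others 6.78 to 6.84).

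Another 6 were in the library labelled lung of Rat3789, which was low in rat alveolar markers. Mouse Xbp1 (293 CPM, others 120 to 149) and Pdia6 (964 CPM, others 703 to 767) were high there, and mouse Chac1 (5.45 CPM, others 15.3 to 21.9), Shmt2 (146 CPM, others 197 to 217), Mthfd2 (26 CPM, others 54.3 to 73.2) and rat Ddit3 (13.3 CPM, others 23.3 to 27.9) were low. The core of Rat3869 held 3: mouse Phgdh (227 CPM, others 107 to 115) and rat Sesn2 (70.1 CPM, others 40.2 to 46.5) were high and rat Sel1l (193 CPM, others 228 to 241) was low. The last was rat Dnajb11 in the rim of Rat3867 (127 CPM, others 111 to 113).

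The difference between core and rim was itself tested as unlike in tumor and host for Atf5 (2.50 on the log2 scale), Slc7a5 (1.17), Pycr1 (2.11) and Edem1 (-0.65), each in the same direction in 5 of 5 animals.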

How the results depend on the processing

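No member changed direction past the threshold under any alternative run. Leaving out 1 animal moved the members called from 14 to between 8 and 15 in mouse core against rim (all genes 1272 to 2397). In rat core against rim they moved from 17 to between 12 and 18 (3794 to 4734). They moved from 7 to between 2 and 13 in mouse lung against rim (1312 to 2831). For rat lung against rim the move was from 7 to between 1 and 8 (1509 to 4113), and for mouse minus rat from 4 to between 4 and 7 (2213 to 3301). Without Rat3876 and Rat3877 the rat core against rim had 11 members and 3351 genes called. The mouse core against rim then had 17 members and 1832 genes called. Chac1, Herpud1, Mthfd2 and Sesn2 were gained there and Edem1 was lost. In the comparisons of core and rim, the fit with no replicate block called 13 mouse members (Hspa5 lost) and 17 rat members (Creld2 lost, Slc7a1 gained). It called 2630 mouse and 5049 rat genes in all. In the lung, the replicate block over 4 animals called 10 mouse and 6 rat members, and 2436 mouse and 3656 rat genes in all. Mean branch differences between core and rim were 0.55 (mouse Atf4), 0.16 (mouse ER), 0.25 (rat Atf4) and 0.20 (rat ER) with total-count scaling. The causes were not tested. The rat cores have the fewest reads, and low rat genes such as Chac1 and Pycr1 rest on few of them. The promoter motif search was not run.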
